A study of Homo sapiens with 2 samples.

Results

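The clustered protocadherins were examined as 53 protein-coding genes on chromosome 5, of 20163 protein-coding genes in the annotation. They were chosen by symbol (PCDHA, PCDHB or PCDHG) and by position on the long arm, a rule that uses no methylation value although earlier results of these data were known, and comprised 15 alpha, 16 beta and 22 gamma genes. In GRCh37 they ran in tandem on the plus strand over 727 kb, chr5:140165721-140892544. Whole-genome bisulfite sequencing measured DNA methylation at CpG dinucleotides in 2 human acute myeloid leukemia (AML) cell lines, OCI-AML3 and AML5, to find what differs where the DNA methyltransferase gene DNMT3A is mutated. OCI-AML3 is the DNMT3A mutant line and carries a heterozygous missense mutation. AML5, titled OCI-AML5 in the labels, is the DNMT3A wild-type line. Both were untreated and grown in the same medium (DMEM with 10% FBS, 5% CO2). Each line gave 1 library, so no difference here has a replicate check, and the 2 lines come from different patients and differ in much besides DNMT3A. The mutation cannot be seen in methylation counts and was not checked. No expression of these genes was measured in the files.

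Protocadherins are cadherin-type adhesion proteins of the cell surface, known best from neurons, where each cell transcribes a few isoforms and thereby carries a surface identity. Each alpha or gamma gene has its own promoter and variable first exon, which encodes the extracellular, transmembrane and part of the cytoplasmic domain and is spliced to 3 exons shared by the whole subfamily, while a beta gene is essentially a single coding exon. Most variable promoters carry a conserved sequence element that binds CTCF, a protein that anchors chromatin loops, and methylation of the CpG in that element is known to block binding and to silence the promoter. The C-type genes at the ends of the alpha and gamma arrays (PCDHAC1, PCDHAC2, PCDHGC3, PCDHGC4 and PCDHGC5) are the isoforms that neurons express more uniformly.

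Matches to the letters taken for the promoter element are shown first for members of each subfamily, since their CpG is read out further on. All sequences are GRCh37, plus strand, 5′ to 3′, and end before the most upstream annotated transcription start site (TSS). Capitals mark 7 bases, TGNCGCT or CGNCGCT, and the CG of their closing CGCT is the CpG measured. Where a match opens with CG, that CG was not taken as the element CpG. The 3 alpha elements shown have the same match and differ in the letters after it:
PCDHA1 (chr5:140165660-140165704): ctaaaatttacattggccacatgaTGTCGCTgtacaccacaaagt
PCDHA4 (chr5:140186553-140186597): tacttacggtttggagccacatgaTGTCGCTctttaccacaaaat
PCDHA12 (chr5:140254818-140254862): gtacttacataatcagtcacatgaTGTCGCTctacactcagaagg

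The beta elements differed from the alpha ones on both sides of the match and ended in GGCGCTG in most members:
PCDHB2 (chr5:140474118-140474162): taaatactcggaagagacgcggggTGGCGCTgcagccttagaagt
PCDHB3 (chr5:140479966-140480010): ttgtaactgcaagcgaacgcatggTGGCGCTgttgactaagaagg
PCDHB7 (chr5:140552136-140552180): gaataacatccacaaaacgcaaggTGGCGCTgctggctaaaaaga
PCDHB12 (chr5:140588204-140588248): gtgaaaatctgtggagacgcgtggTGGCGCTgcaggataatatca

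The gamma elements are shown for a member that was lower in OCI-AML3, a member that was higher, and members with almost no methylation in either line:
PCDHGA4 (chr5:140734516-140734560): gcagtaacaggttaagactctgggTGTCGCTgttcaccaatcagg
PCDHGA6 (chr5:140753391-140753435): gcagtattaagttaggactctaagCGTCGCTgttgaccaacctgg
PCDHGA11 (chr5:140800528-140800572): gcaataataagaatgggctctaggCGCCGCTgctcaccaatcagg
PCDHGC3 (chr5:140855436-140855480): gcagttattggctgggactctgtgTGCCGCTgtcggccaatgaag

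Methylation was high over the clusters in both lines. The level of a gene was the mean over its CpG dinucleotides within 2 kb before or after the most upstream TSS, taking those covered by more than 5 reads in OCI-AML3 and in AML5 alike. Member levels had a median of 79.3% in OCI-AML3 (25.0% to 94.1%) and 78.7% in AML5 (46.5% to 91.9%). Over all 19667 protein-coding genes with at least 10 such CpG dinucleotides, the medians were 30.4% and 37.1%. Of the 53 members, 47 were above 66%, the level from which the study counts a CpG as hypermethylated, in both lines, against 19.6% of protein-coding genes. Across the members, the levels in the 2 lines had a Spearman correlation of 0.58 (n = 53 genes, which share libraries, sequence and position and are not replicates). The number of CpG dinucleotides in a window and its difference between the lines had a Spearman correlation of 0.44 over the same genes.

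Most genes were less methylated in OCI-AML3, whereas the members as a group were nearly level between the lines. Over all genes the median difference, OCI-AML3 minus AML5, was -4.68 percentage points, and 15.3% of windows were higher in OCI-AML3. Over the members it was 0.90 points, and 32 of 53 were higher in OCI-AML3 while 21 were lower. Only PCDHGC3 (1.89% of members) was lower by over 20 points, against 8.61% of genes. Only PCDHGB7 (also 1.89%) was higher by over 20 points, near the 1.79% of genes. The sign of the members' median depended on the part of the promoter taken, since it was -1.69 points with the 2 kb upstream of the TSS alone.

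The members were also set beside other highly methylated genes. Among 3012 other genes with at least 50 CpG dinucleotides and an AML5 level above 66%, the median difference was -8.03 points, 11.7% were higher in OCI-AML3, and 15.1% were lower by over 20 points. The 47 members that met the same limits had a median of 0.84 points, 28 of them were higher, and 0 were lower by over 20 points. The AML5 limit left out PCDHGC3 (46.5%) and PCDHGB7 (62.6%), the only members past 20 points, so that the 0 follows from it. AML5 levels were not matched, with medians of 85.2% for the other genes and 79.5% for these members. The shares describe the 2 libraries, and neighbouring members are not independent of each other.

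**Figure D1:**
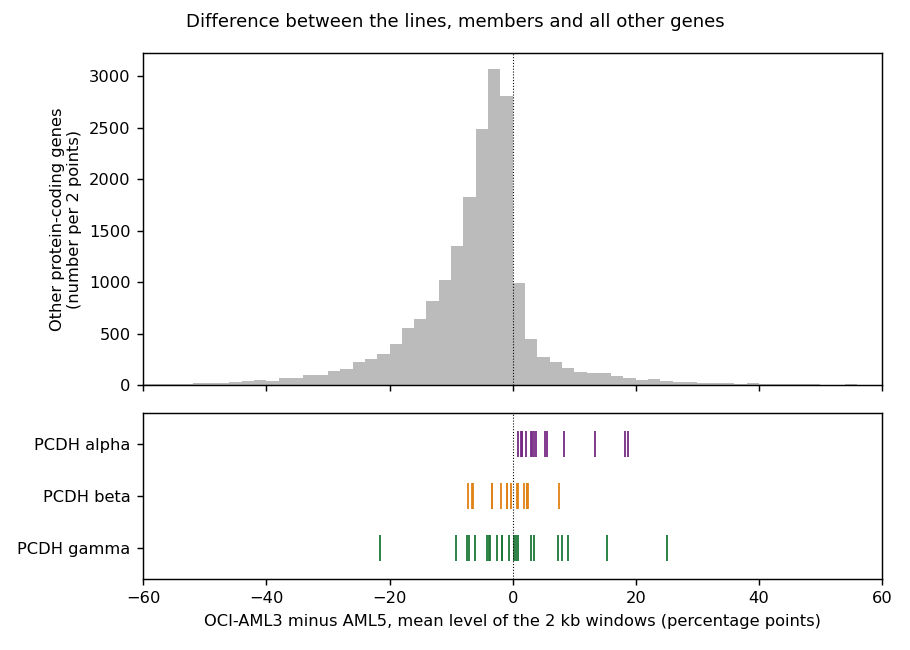
Difference in mean methylation level of the 2 kb windows, OCI-AML3 minus AML5, in percentage points. Grey bars count the other protein-coding genes per 2 points and peak below 0, while each tick is 1 member, with the alpha ticks all above 0 and PCDHGC3 (-21.5) and PCDHGB7 (25.1) at the ends of the gamma row.

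Levels were also close over the whole 727 kb. The 12342 CpG dinucleotides of the clusters that were read in both lines averaged 78.6% in OCI-AML3 against 77.8% in AML5, or 0.78 points apart. In the 500 kb on either side the means were 63.7% and 71.2%, and on chromosome 5 they were 67.9% and 74.7%. Sequencing depth stood apart too, with medians in the clusters of 53 calls (OCI-AML3) and 39 calls (AML5) per CpG, against 28 and 30 in the 5 Mb on either side. The part of depth in these differences was not tested. The mean with every call given equal weight differed by 2.98 points.

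**Figure D2:**
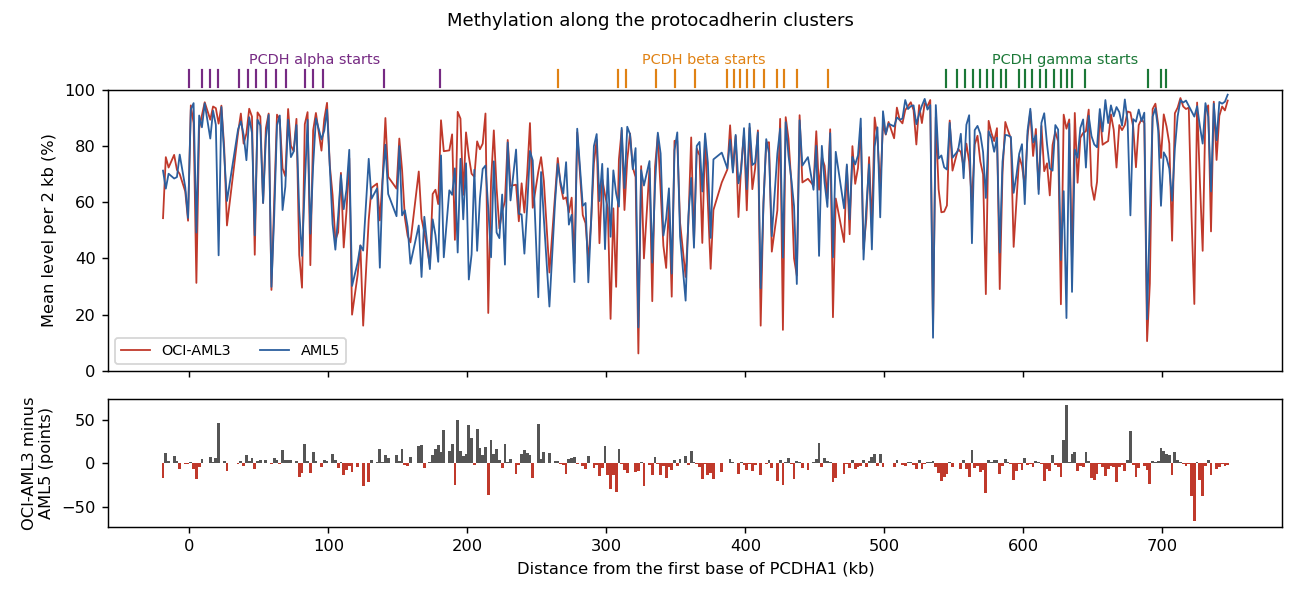
Mean methylation level in consecutive 2 kb bins (upper panel, percent) and its difference between the lines (lower panel, percentage points) against distance from the first base of PCDHA1, with ticks at the member starts. Levels rose and fell along the clusters in both lines, with lower stretches among the last alpha starts (37.6% and 36.2% at 173 kb), and the tallest bar, 86.1% in OCI-AML3 against 18.8% in AML5 at 631 kb, lay at PCDHGB7.

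Each CpG was also tested on its own with Fisher's exact test, Benjamini–Hochberg adjusted over all 24454751 CpG dinucleotides of the genome. This test compares the reads of 2 libraries, not the 2 genotypes. Of 5957 CpG dinucleotides in the member windows, 771 were more methylated in OCI-AML3 (12.9%, against 5.10% in all protein-coding windows) and 509 were less methylated (8.54%, against 13.1%). The members' windows were read to medians of 62 calls (OCI-AML3) and 42 calls (AML5) per CpG, deeper than the 27 and 30 of the genome, so that smaller differences could pass the test there. At those window medians the lowest share that can be detected, taking 3 calls, is 4.84% in OCI-AML3 and 7.14% in AML5.

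The alpha genes were higher in OCI-AML3 in 15 of 15 cases. Their median level was 89.1% in OCI-AML3 against 85.6% in AML5, the differences ran from 0.8 to 18.7 points, and their median was 3.52. Of 2103 CpG dinucleotides in their windows, 293 were more methylated in OCI-AML3 (13.9%, against 5.10% in all protein-coding windows). Another 52 were less methylated (2.47%, against 13.1%). The median stayed above 0 under every alternative tried, with a highest value of 6.97 points. The alpha first exons had mean levels of 91.9% in OCI-AML3 and 87.4% in AML5.

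PCDHA4 and PCDHA11 had the largest differences among the alpha genes, 18.7 and 18.3 points, and which of them was larger depended on the setting. In PCDHA4, 135 CpG dinucleotides averaged 91.4% in OCI-AML3 and 72.7% in AML5, with 46 higher and 1 lower in OCI-AML3. Taking all calls together, 92.4% were methylated in OCI-AML3 (Wilson 95% interval 91.8 to 93.0) and 70.5% in AML5 (69.3 to 71.8). These intervals cover the counting of calls only, and are too narrow even for that, since 1 read gives calls at several CpG dinucleotides. The difference was concentrated near the start, where the 35 CpG dinucleotides within 500 bases of the canonical TSS averaged 88.6% in OCI-AML3 and 38.0% in AML5. The 250 bases before its TSS, with each CG in capitals, held 5 CpG dinucleotides that averaged 66.3% in OCI-AML3 and 22.1% in AML5:
PCDHA4 (chr5:140186372-140186621): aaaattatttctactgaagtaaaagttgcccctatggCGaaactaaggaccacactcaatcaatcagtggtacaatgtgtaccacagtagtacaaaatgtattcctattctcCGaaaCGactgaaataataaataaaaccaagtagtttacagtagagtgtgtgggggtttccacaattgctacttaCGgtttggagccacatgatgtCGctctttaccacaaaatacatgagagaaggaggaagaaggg

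PCDHA11 was at 81.8% in OCI-AML3 against 63.5% in AML5 over 58 CpG dinucleotides. Its most upstream TSS lies 774 bases before the canonical one, and its difference ran from -1.7 to 37.2 points over the alternatives tried. PCDHA9 (80.2% and 75.0%), whose most upstream TSS lies 610 bases before the canonical one, and PCDHA12 (88.6% and 82.9%) were next among the alpha genes other than the C-type, each higher in OCI-AML3 under every alternative. At the other end PCDHA1 (91.2% and 89.9%) and PCDHA5 (89.1% and 88.3%) were almost level between the lines, and each changed sign under at least 1 alternative.

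The C-type genes split. In the alpha array PCDHAC1 was at 85.7% in OCI-AML3 against 77.4% in AML5, and PCDHAC2 at 85.3% and 71.9%. In the gamma array PCDHGC4 was at 78.3% and 62.9%, and PCDHGC5 at 90.6% and 81.6%. All 4 were higher in OCI-AML3 under every alternative, and PCDHAC2 had 41 CpG dinucleotides higher and 1 lower.

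PCDHGC3, the fifth C-type gene, went the opposite way and had the lowest level of the members in both lines. Its 149 CpG dinucleotides averaged 25.0% in OCI-AML3 and 46.5% in AML5, with 67 lower and 3 higher in OCI-AML3. As shares of all calls, 25.1% were methylated in OCI-AML3 (Wilson 95% interval 24.2 to 26.0) and 44.1% in AML5 (42.9 to 45.3), which is under 20 points apart. Close to the start both lines were low, at 2.03% and 10.7% over the 50 CpG dinucleotides within 500 bases, so that most of the difference lay farther out. The 250 bases before its TSS averaged 0.670% in OCI-AML3 against 4.90% in AML5 over 14 CpG dinucleotides, which stand in capitals:
PCDHGC3 (chr5:140855264-140855513): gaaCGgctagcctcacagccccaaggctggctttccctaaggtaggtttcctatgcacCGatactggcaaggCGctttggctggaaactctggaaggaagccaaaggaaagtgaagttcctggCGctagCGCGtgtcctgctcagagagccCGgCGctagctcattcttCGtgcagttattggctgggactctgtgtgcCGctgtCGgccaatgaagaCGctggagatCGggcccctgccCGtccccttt

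The beta genes had no common direction. Their median levels were 77.1% in OCI-AML3 against 77.3% in AML5, the median difference was -0.61 points (-7.2 to 7.5), and 7 of 16 were higher in OCI-AML3. Of 1586 CpG dinucleotides in their windows, 140 were more methylated in OCI-AML3 (8.83%, against 5.10% in all protein-coding windows). Another 155 were less methylated (9.77%, against 13.1%). The median depended on the setting, turning to 2.21 points for shares of all calls and reaching -10.30 points for the 2 kb upstream alone.

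Near the beta starts, large differences ran both ways. PCDHB2 averaged 72.9% in OCI-AML3 and 42.9 points less in AML5 over the 28 CpG dinucleotides within 500 bases of the canonical TSS. PCDHB3 averaged 57.6% and 83.6% over 27, and PCDHB12 averaged 46.1% and 76.0% over 18. Thus PCDHB2 was the more methylated in OCI-AML3 and its neighbour PCDHB3 the less methylated, and both kept these signs, as did PCDHB12, under every alternative. In the 250 bases before the PCDHB12 start, the 4 CpG dinucleotides that were read averaged 0% in OCI-AML3 and 96.1% in AML5:
PCDHB12 (chr5:140588019-140588268): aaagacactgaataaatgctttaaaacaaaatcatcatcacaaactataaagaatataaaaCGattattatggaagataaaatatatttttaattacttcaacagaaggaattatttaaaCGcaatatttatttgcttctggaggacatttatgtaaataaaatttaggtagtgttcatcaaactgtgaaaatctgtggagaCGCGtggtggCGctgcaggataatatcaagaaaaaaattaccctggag

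Over the wider 2 kb windows PCDHB2, PCDHB3 and PCDHB12 differed less between the lines. PCDHB2 was at 78.9% in OCI-AML3 and 71.4% in AML5, PCDHB3 at 79.3% and 86.5%, and PCDHB12 at 77.0% and 83.5%. PCDHB9 differed more over 2 kb (74.5% and 81.0%) than within 500 bases of the canonical TSS (53.8% and 54.3%). PCDHB15 (77.2% and 74.8%) was higher in OCI-AML3 under every alternative. PCDHB7 (79.3% and 77.0%), PCDHB16 (78.5% and 76.6%) and PCDHB14 (74.8% and 72.4%) were slightly higher there and changed sign with the setting. PCDHB4 (79.0% and 78.2%), PCDHB8 (78.5% and 78.7%) and PCDHB1 (72.5% and 71.7%), the first and most distant of the beta genes, were within 1 point between the lines. Each of these changed sign with the setting. With the 2 kb upstream alone the differences were -9.3 points in PCDHB4, -17.9 in PCDHB8 and -4.0 in PCDHB1.

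The gamma genes were the most varied. Their median levels were 77.9% in OCI-AML3 against 79.0% in AML5, the median difference was -1.18 points (-21.5 to 25.1), and 10 of 22 were higher in OCI-AML3. The median changed sign with the window, being 6.11 points within 500 bases of the canonical TSS. Of 2268 CpG dinucleotides, 338 were more methylated in OCI-AML3 (14.9%, against 5.10% in all protein-coding windows). Another 302 were less methylated (13.3%, near the 13.1% of those windows).

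PCDHGB7 had the largest difference of all members. Its 131 CpG dinucleotides averaged 87.7% in OCI-AML3 and 62.6% in AML5, with 58 higher and 6 lower in OCI-AML3. Of all calls, 90.4% were methylated in OCI-AML3 (Wilson 95% interval 89.7 to 91.0) and 63.2% in AML5 (62.0 to 64.4). Within 500 bases of the start, 47 CpG dinucleotides averaged 86.8% and 17.0%. Its upstream 250 bases averaged 61.5% in OCI-AML3 against 2.69% in AML5 over 8 CpG dinucleotides, most of them close together near the start:
PCDHGB7 (chr5:140796962-140797211): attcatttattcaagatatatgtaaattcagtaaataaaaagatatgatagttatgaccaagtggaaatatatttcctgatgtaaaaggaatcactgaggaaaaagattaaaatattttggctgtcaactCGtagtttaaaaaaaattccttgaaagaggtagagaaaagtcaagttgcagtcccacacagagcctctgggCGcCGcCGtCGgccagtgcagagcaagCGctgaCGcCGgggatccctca

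Its neighbours downstream were also higher in OCI-AML3, PCDHGA11 at 70.1% and 62.8% and PCDHGA12 at 86.6% and 78.6%, although PCDHGA12 turned to -3.0 points with the 2 kb upstream alone. PCDHGA11 was low close to its start in both lines, at 20.9% in OCI-AML3 and 14.2% in AML5 within 500 bases. Just upstream of PCDHGB7, PCDHGA10, named here after its values were seen, was at 1.26% in OCI-AML3 and 27.9% in AML5 within 500 bases. Directly adjacent gamma promoters thus differed in opposite directions. PCDHGB3, also named after its values were seen, was lower in OCI-AML3 by more than any other member within 500 bases, at 20.3% against 54.3%.

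At the start of the gamma array, PCDHGA1 was at 67.8% in OCI-AML3 against 75.1% in AML5, and PCDHGA4 at 73.0% and 82.2%. Both were lower in OCI-AML3 under every alternative. PCDHGA5 (82.2% and 78.7%) and PCDHGA6 (87.6% and 84.6%) were higher there under every alternative. PCDHGB2 (81.7% and 80.8%), PCDHGB4 (78.1% and 77.6%) and PCDHGB5 (79.8% and 79.5%) were within 1 point, and each changed sign with the setting. For PCDHGB2 the difference was -31.1 points with the 2 kb upstream alone. In the 250 bases before its TSS, 4 CpG dinucleotides averaged 2.63% in OCI-AML3 and 50.7% in AML5. PCDHGB4 and PCDHGB5 have promoters of almost the same letters, and PCDHGB5 had the lowest share of its CpG dinucleotides read in both lines, 85.7%. Whether reads were placed in the wrong copy was not tested.

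Within 500 bases of the canonical TSS, member levels had medians of 75.1% in OCI-AML3 and 71.8% in AML5, whereas the medians of all 17647 genes with enough CpG dinucleotides were 2.21% and 5.20%. Of the 53 members, 6 (11.3%) were higher by over 20 points in OCI-AML3, against 3.42% of genes. Another 5 (9.43%) were lower by over 20 points, a share near the 8.77% of genes. The 6 were PCDHA4, PCDHA11, PCDHB2, PCDHGB7, PCDHGA12 and PCDHGC4. The 5 were PCDHB3, PCDHB12, PCDHB13, PCDHGB3 and PCDHGA10. This narrower window was added after the data were seen.

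**Figure D3:**
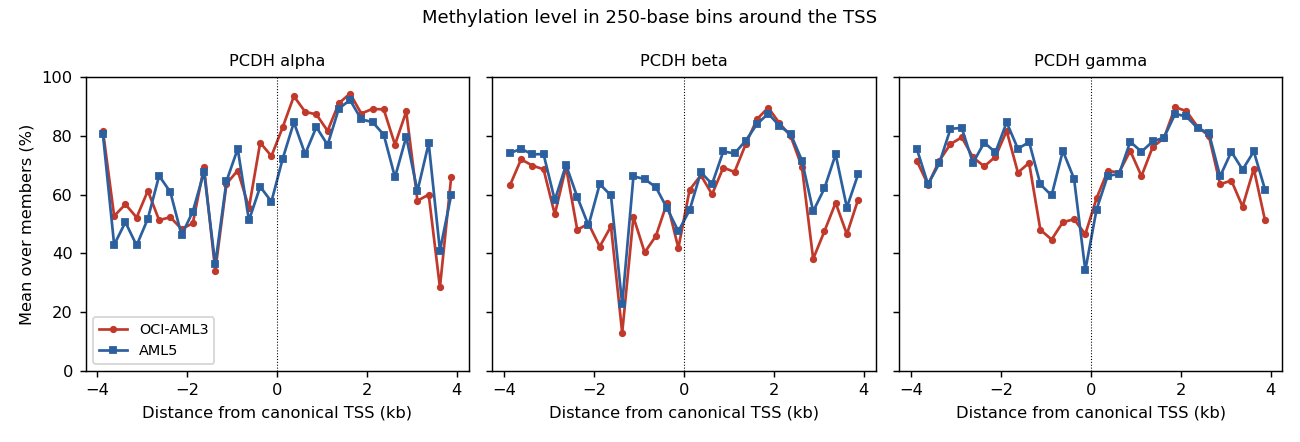
Mean over members (percent) of the methylation level in 250-base bins against distance from the canonical TSS (kb), for each subfamily, in OCI-AML3 (red) and AML5 (blue). In the bin just before the TSS the gamma genes were at 46.5% in OCI-AML3 against 34.2% in AML5, and all 3 subfamilies rise to high levels inside the first exon.

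Members varied widely in the 250 bases before the canonical TSS. The 330 CpG dinucleotides there averaged 55.1% in OCI-AML3 and 47.0% in AML5. By Fisher's exact test 100 of them were more methylated in OCI-AML3 (30.3%, genome 3.86%) and 53 less methylated (16.1%, near the 14.7% of the genome). Over the 2 kb windows of all protein-coding genes these shares were 5.10% and 13.1%. In the bin just before the TSS, the mean over alpha genes was 73.1% ± 20.6 (SD between members, n = 15) in OCI-AML3 and 57.6% ± 32.5 in AML5. For beta genes it was 41.8% ± 29.4 and 47.5% ± 28.3 (n = 16), and for gamma genes 46.5% ± 32.0 and 34.2% ± 21.8 (n = 22).

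Matches to the letters taken for the promoter element, called elements below, were then read out CpG by CpG. The letters TGNCGCT or CGNCGCT, chosen after the promoter sequences had been seen, occurred on the transcribed strand of the 250 bases before the canonical TSS in 43 members (81.1%) and in 15.6% of 20110 other protein-coding genes. On the opposite strand they occurred in 9 members (17.0%) and in 15.1% of the others. By themselves, TGNCGCT was found in 60.4% of members and 5.43% of other genes, and CGNCGCT in 28.3% of members and 2215 other genes. The letters were picked from these same promoters, so a higher share in the members follows from that choice. It does not show that the letters are the conserved element. Longer spellings, of the conserved element and of the CTCF core, were searched first, so the letters read out here were not those planned. The former matched only 2 members (3.77%, against 1.39% of other genes) and the latter matched 1 (1.89%, against 6.55%). Both had 0 matches on the opposite strand in the members. The matches of the former, in PCDHB7 and PCDHB9, lie on the same CpG as a TGNCGCT match.

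No match was found in PCDHA9, PCDHAC1, PCDHAC2, PCDHB1, PCDHB6, PCDHB8, PCDHGB7, PCDHGA12, PCDHGC4 and PCDHGC5, which says only that these letters are not in this window. In 5 members there was more than 1 match, and the 43 members held 49 matches in all.

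Both lines had elements with high and with low methylation, in part at different genes. An element here is any match to the letters, and whether CTCF binds there was not tested. Some matches, in PCDHB4, PCDHGB4, PCDHGB5 and PCDHGC3, lack the surrounding letters that most of their subfamily shares, and were counted too. At PCDHGB4, PCDHGB5 and PCDHGC3 such a match was among those that differed. Of the 47 element CpG dinucleotides read in both lines, 17 were more methylated in OCI-AML3 (genome 3.86%) and 11 less methylated (genome 14.7%). Over all CpG dinucleotides in the members' 250 bases before the canonical TSS, the shares were 30.3% and 16.1%. Whether the element differs from the bases around it was not tested. Their median levels were 53.2% (OCI-AML3) and 29.2% (AML5). In OCI-AML3 17 were below 20% and 14 above 80%, and in AML5 20 were below 20% and 8 above 80%. Among these, 11 were below 20% in both lines, 3 were above 80% in both, and 5 were below 20% in one line and above 80% in the other.

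**Figure D4:**
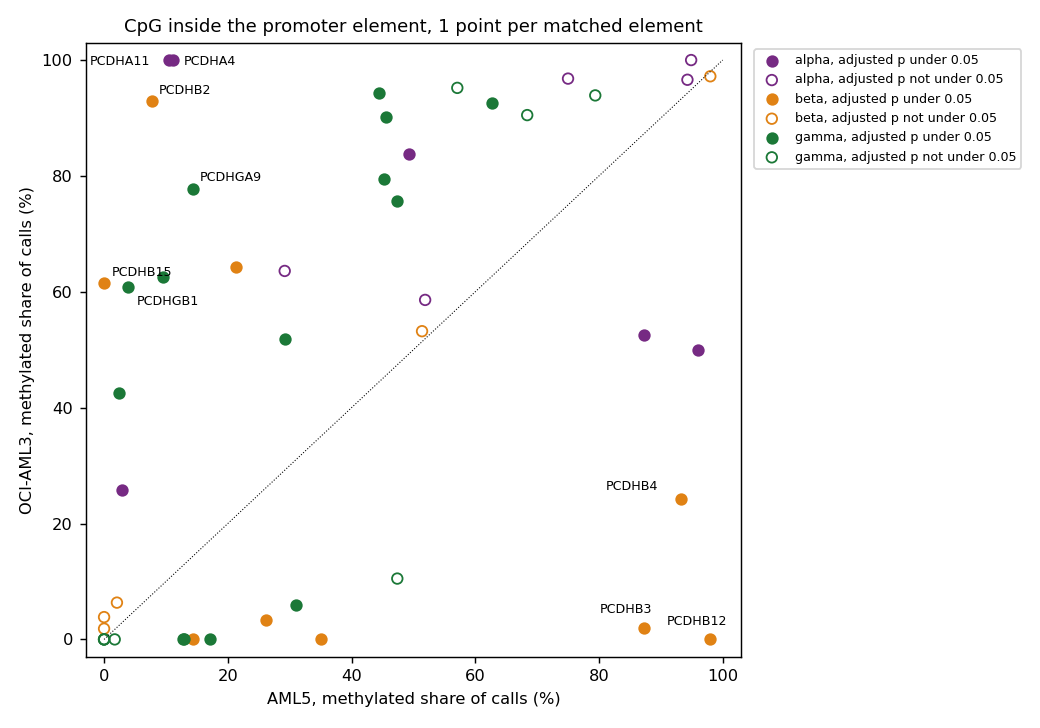
Methylated share of calls (percent) at the CpG inside each match, called an element, in AML5 (horizontal) and OCI-AML3 (vertical). Points are coloured by subfamily and filled where the adjusted p by Fisher's exact test was under 0.05. The points at the upper left (PCDHA4, PCDHA11, PCDHB2) and lower right (PCDHB3, PCDHB12) are the elements that were below 20% in one line and above 80% in the other.

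The element of PCDHB12 was methylated in 0 of 35 calls in OCI-AML3, which allows a share of up to 8.57%, and in 48 of 49 in AML5 (98.0%, Wilson 95% interval 89.3 to 99.6; Fisher's exact test, adjusted p = 2.4e-20). The element of PCDHB3 was methylated in 1 of 50 calls in OCI-AML3 (2.00%, 0.354 to 10.5) and 34 of 39 in AML5 (87.2%, 73.3 to 94.4; Fisher's exact test, adjusted p = 6.3e-16). The reverse was seen in PCDHB2, where 13 of 14 calls were methylated in OCI-AML3 (92.9%, 68.5 to 98.7) and 1 of 13 in AML5 (7.69%, 1.37 to 33.3; Fisher's exact test, adjusted p = 1.2e-04). PCDHB4 had 2 matches, of which the first was methylated in 15 of 62 calls in OCI-AML3 and 42 of 45 in AML5 (Fisher's exact test, adjusted p = 1.0e-11) and the second, nearer the start, in 69 of 71 and 50 of 51. In the alpha array the element of PCDHA11 was methylated in 11 of 11 and 2 of 19 calls (Fisher's exact test, adjusted p = 2.2e-05), and that of PCDHA4 in 6 of 6 and 1 of 9 calls (Fisher's exact test, adjusted p = 0.00978), both at low depth.

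Intermediate elements were common among the gamma genes. PCDHGA6 was at 94.4% in OCI-AML3 (34 of 36 calls, Wilson 95% interval 81.9 to 98.5) and 44.4% in AML5 (12 of 27, 27.6 to 62.7), with an adjusted p of 2.3e-04 by Fisher's exact test. PCDHGB5 was at 90.1% (64 of 71, 81.0 to 95.1) and 45.6% (26 of 57, 33.4 to 58.4) at the first of its 2 matches, with an adjusted p of 1.1e-06 by Fisher's exact test. Counted by match, the gamma elements that differed were higher in OCI-AML3 in 10 cases and lower in 3. The beta ones were so in 3 and 6, and the alpha ones in 4 and 2. PCDHGB4 and PCDHGB5 each gave 2 of the 10, at CpG dinucleotides close together, so these are not separate observations.

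The PCDHGC3 promoter held 3 matches, methylated in 0 of 80, 0 of 79 and 0 of 90 calls in OCI-AML3, which allow shares of up to 3.75%, 3.80% and 3.33%. In AML5 they were methylated in 7 of 55, 1 of 58 and 0 of 60 calls. The element of PCDHGA11 was methylated in 0 of 39 calls in OCI-AML3, which allows up to 7.69%, and in 0 of 37 in AML5, which allows up to 8.11%. PCDHB7 was at 1 of 26 and 0 of 29 calls. The elements of PCDHB10, PCDHB11, PCDHB14, PCDHGA4, PCDHGA8 and PCDHGA10 were likewise below 20% in both lines. Within this low range 3 elements were still called lower in OCI-AML3. They were the first PCDHGC3 match (Fisher's exact test, adjusted p = 0.0102), PCDHB14, with 0 of 55 calls against 7 of 49 (Fisher's exact test, adjusted p = 0.0246), and PCDHGA4, with 0 of 39 calls in OCI-AML3, which allows up to 7.69%, against 6 of 35 in AML5 (17.1%, 8.10 to 32.7; Fisher's exact test, adjusted p = 0.0477).

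Methylation was also taken over the exons, where the alpha first exons given above were the highest. The beta first exons averaged 81.2% in OCI-AML3 against 80.8% in AML5, and the gamma first exons 78.9% and 78.2%. The 85 CpG dinucleotides of the shared 3′ exons of the alpha and gamma genes averaged 81.7% and 76.3%, and the rest of the clusters 71.2% and 73.0%. Genes and pseudogenes that lie among the members gave a mixed picture. TAF7, a subunit of the general transcription factor TFIID, was low in both lines (29.5% and 26.6%), and SLC25A2, a mitochondrial ornithine carrier, was high in both (94.9% and 93.6%). The pseudogenes PCDHA14, PCDHB17P, PCDHB18P, PCDHB19P, PCDHGB8P and PCDHGB9P lay between 74.1% and 85.8% in OCI-AML3 and between 74.1% and 89.0% in AML5.

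Other genes of the family and its regulation were taken from lists. Of all protein-coding genes, 15.3% were higher in OCI-AML3, 1.79% were higher by over 20 points and 8.61% were lower by over 20 points. Of 12 protocadherins outside the clusters, 7 were higher in OCI-AML3, 3 of them by over 20 points, and 2 were lower by over 20 points, with a median difference of 11.90 points. Of 6 large cadherins of the FAT and DCHS kind, 4 were higher in OCI-AML3, and DCHS1 was at 25.9% against 76.4%. Of 5 classical cadherins, 4 were lower in OCI-AML3, the direction of most protein-coding genes. Among 18 regulators and partners of the protocadherins, such as CTCF, cohesin subunits and SMCHD1, 16 were lower, as were 16661 of all 19667 protein-coding windows, with a median difference of -2.81 points. CTCF was at 4.78% and 6.44%, and SMCHD1, a chromatin protein known to repress the clusters, at 4.08% and 4.97%. SETDB1, a histone methyltransferase, was at 39.6% in OCI-AML3 against 64.0% in AML5, the only one of the 18 lower by over 20 points, and NCKAP1 was at 60.4% and 31.4%, the only one higher by over 20 points.

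The myeloid label was checked with marker genes. SPI1 (11.5% in both lines) and CEBPA (1.82% and 6.01%), which encode transcription factors of the myeloid lineage, were low, whereas MPO, which encodes myeloperoxidase, was high (93.2% and 90.3%). The other myeloid markers, CD33 (36.5% and 32.3%) and CSF3R (40.6% and 41.1%), were in between. The 4 lymphoid markers were between 69.5% and 90.5% in OCI-AML3 and between 69.6% and 92.1% in AML5. The neuronal markers that were measured were NEUROD1 (50.5% and 63.3%) and SYN1 (46.7% and 38.2%).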

How the data were processed

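Genomic DNA of 2 cultured lines, 1 library each, was converted with bisulfite and sequenced by the authors as paired-end reads. Per the labels, the authors aligned them to hg19 with Bowtie 0.12.8 and ran Bismark for the methylation calls. What they deposited were, for each CpG, the counts of calls of either state with both strands added, neither smoothed nor normalized by the authors. Whether duplicate reads were removed is not given in the sources used here. Bisulfite cannot tell a C-to-T variant from an unmethylated C, and reads that fit several copies of similar genes may be lost or misplaced. Each table held 28217448 CpG dinucleotides, with median depths of 27 calls (OCI-AML3) and 30 calls (AML5). Of mitochondrial calls, 0.168% and 0.101% were methylated, which showed which column held the methylated calls.

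Gene starts came from a GENCODE annotation lifted to GRCh37, and sequences from the GRCh37 genome. A CpG was used where OCI-AML3 and AML5 each had more than 5 reads. Levels were means over the CpG dinucleotides within 2 kb of the most upstream TSS, and the threshold for a difference was 20 percentage points. Single CpG dinucleotides were compared with a two-sided Fisher's exact test, adjusted by Benjamini–Hochberg over the genome at 0.05. Both steps were tested on simulated data. Shares of calls had Wilson 95% intervals, and a share of 0 is limited by 3 calls. Intervals and tests cover read sampling only.

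The members and lists were chosen with earlier results of these data known. The genes named were, in each of the alpha, beta and gamma genes without the C-type, the 4 with the largest and the 2 with the smallest difference, all C-type genes, PCDHB1 and any member against the sign of its subfamily's median. Further members listed as past a limit close to the start or at the element were named after their values were seen. Of the neuronal list, RBFOX3 was not analysed here. Alternatives were other read minimums, windows, starts, thresholds and weights. Scripts ran under scipy 1.17.1 and numpy 2.4.6 in Python 3.11.15, with numba 0.67.0 for the exact test, pysam 0.24.0 for the genome and matplotlib 3.10.9 for plots.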

Additional observations from a re-analysis of the deposited data

How the results depend on the processing

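No paired analysis was possible because each line had 1 library. The cause of the shifts below was not tested. The members' median difference was 1.22 points with at least 1 read, 2.66 by share of calls, 3.07 within 1 kb, -1.69 for the 2 kb upstream, 1.30 with each CpG given to its nearest TSS, 0.69 without very deep CpG dinucleotides and 5.85 within 500 bases (the last added after seeing the data). Members lower by over 20 points numbered 0 by share of calls, 3 within 1 kb, 6 upstream, 5 within 500 bases and 0 at a threshold of 30 points. Those higher numbered 2 by share of calls and without deep CpG dinucleotides, 4 within 1 kb and upstream, 6 within 500 bases, 5 at a threshold of 10 points and 0 at 30. Of all protein-coding genes, 8.61% were lower and 1.79% higher by over 20 points within 2 kb. Within 500 bases the shares were 8.77% and 3.42%. For the other settings no share of all genes is given, so those counts cannot be read as particular to the members. The alpha median was 4.45 with at least 1 read, 4.17 by share of calls, 6.97 within 1 kb, 3.0 upstream and 6.80 within 500 bases. The beta median was 2.21 by share of calls, -1.27 within 1 kb, -10.30 upstream, and 0.10 without deep CpG dinucleotides and within 500 bases. The gamma median was -0.57 with at least 10 reads, -2.31 with at least 1 read, 0.50 by share of calls, 1.03 within 1 kb, 0.11 upstream, -0.82 from the canonical TSS, -0.56 without deep CpG dinucleotides and 6.11 within 500 bases. The cluster-wide difference was 0.62 with at least 1 read and 2.98 by share of calls. Less methylated CpG dinucleotides numbered 328 within 1 kb against 509 within 2 kb, with no share given for the narrower window. Element CpG dinucleotides that differed numbered 1 with the letters chosen first, which held a CpG in PCDHB7 and PCDHB9 only. They numbered 28 of 47 with the letters added after seeing the data, or 27 with at least 10 reads. These counts thus depend on how many CpG dinucleotides the letters matched. Of the 32 named members, 19 kept their sign under all 9 alternatives. With 1 library per line, differences between cultures and clones are not covered.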

Other observations

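Along the 2 kb bins, further stretches stood apart outside the promoters, picked after the values were seen. In the last part of the gamma genes, 723 kb from the first base of PCDHA1, 31 CpG dinucleotides averaged 23.8% in OCI-AML3 and 90.4% in AML5. Behind the start of PCDHAC2, at 201 kb, 13 CpG dinucleotides averaged 76.3% in OCI-AML3 and 32.5% in AML5. Both lie in introns or exons downstream of the variable exons and were not compared with other genes.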
